A study of Mus musculus with 12 samples.

Results

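The 9 chemokine receptor genes described here are Ccr1, Ccr2, Ccr7, Cxcr2, Cxcr3, Cxcr4, Cxcr6, Ackr1 and Ackr3. They were chosen by symbol, each matched to 1 Ensembl identifier, among 35697 gene identifiers counted in the 2018 libraries and 55637 counted in the 2022 libraries, by a rule that uses no expression value. The list itself was drawn up with earlier results of these data known. RNA-seq was performed on mouse brain in 12 libraries, 3 mice in each of 4 groups, all adult male C57BL/6J wild-type mice. In the 2018 batch, 3 sham mice went through surgery with no impact, and 3 TBI mice received a controlled cortical impact (CCI: tip of 3 mm, 1.5 m/s, depth of 1.5 mm, dwell of 100 ms) and were sampled at 7 days. In the 2022 batch all 6 mice carried the same injury. Of these, 3 received zileuton, an inhibitor of 5-lipoxygenase (5-LOX, the enzyme that starts leukotriene synthesis), at a daily intraperitoneal dose of 10 mg per kg (the carrier was corn oil), and 3 are labelled only as injured and served as the controls. They are called vehicle here, as in the study. The source labels give 7, 8 and 9 days for the zileuton mice and the library names give 7 days for each. The 2022 columns could not be tied to single labelled mice, so these mice are called A, B and C within a group. The model is a focal contusion sampled once as whole tissue from around the lesion, with no sorting of cells.

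Chemokine receptors are membrane proteins with 7 passes through the membrane that steer leukocytes along gradients of small secreted proteins, the chemokines. Most couple to inhibitory G proteins and drive adhesion and migration. The atypical receptors Ackr1 and Ackr3 bind chemokines without that coupling and remove, carry or store them. In injured brain, Ccr2 is best known on monocytes, Cxcr2 on neutrophils, Cxcr3 and Cxcr6 on T and NK cells, and Ccr7 on migrating dendritic cells and T cells. Cxcr4 is present on many leukocytes and on neural and vessel cells. Ackr1 is known from venules and red blood cells, and Ackr3 from vessels, neurons and glia.

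Of the 9 genes, 3 lie together. On the GRCm38 annotation (GENCODE M21) Cxcr6, Xcr1, Ccr1, Ccr1l1, Ccr3 and Ccr2 fall in that order within 307 kb of chromosome 9. Cxcr2, Cxcr4, Ackr1 and Ackr3 are on chromosome 1, Ccr7 on chromosome 11 and Cxcr3 on chromosome X. Ackr1 shares 361 of its 1405 exon bases with Cadm3, a neuronal adhesion gene on the same strand, so reads there cannot be assigned to 1 gene and the Ackr1 counts are uncertain. Cxcr6 lies inside Fyco1 on the opposite strand and shares 0 exon bases with it. The RefSeq promoter table held 8 of the 9 genes (build GRCm38.p6), and a window of 250 bases before the start site was read for each. Promoters of 3 of the genes that were higher after injury are shown because they hold the short motif GAGGAA or its reverse complement, the core bound by the myeloid factor PU.1. The capitals mark this motif, which reads as its reverse complement in Cxcr2 and Cxcr3. The first run of capitals in Cxcr2 marks instead a CCAAT box, also in reverse. The windows are chr9:123968693-123968942 on the minus strand for Ccr1, chr1:74153744-74153993 on the plus strand for Cxcr2 and chrX:101734148-101734397 on the minus strand for Cxcr3.
Ccr1: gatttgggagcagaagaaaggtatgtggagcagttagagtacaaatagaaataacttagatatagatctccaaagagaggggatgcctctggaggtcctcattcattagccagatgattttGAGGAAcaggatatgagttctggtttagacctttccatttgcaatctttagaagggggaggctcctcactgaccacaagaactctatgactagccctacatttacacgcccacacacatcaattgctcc
Cxcr2: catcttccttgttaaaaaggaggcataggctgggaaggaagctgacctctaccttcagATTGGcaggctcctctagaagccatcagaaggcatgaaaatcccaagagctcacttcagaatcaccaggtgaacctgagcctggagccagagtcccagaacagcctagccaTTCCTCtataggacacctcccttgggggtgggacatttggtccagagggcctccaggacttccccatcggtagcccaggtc
Cxcr3: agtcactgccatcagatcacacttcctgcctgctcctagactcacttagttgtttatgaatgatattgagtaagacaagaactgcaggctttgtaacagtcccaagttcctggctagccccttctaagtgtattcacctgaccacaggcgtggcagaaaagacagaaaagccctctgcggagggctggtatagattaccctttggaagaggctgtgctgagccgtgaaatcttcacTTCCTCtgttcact
GAGGAA was thus present in 3 of 8 promoters, against 23.3% of the 32851 promoters in the table. CCAAT was in 2 of the 8 (Cxcr2 and Ackr3), against 33.8%. The STAT motif TTCNNNGAA (7.02% of all promoters), the HIF motif TACGTG (2.72%), the CRE motif TGACGTCA (1.55%) and the AP-1, NF-kB and ISRE core motifs (6.75%, 1.41% and 2.98%) were in 0 of the 8 windows. These are matches of letters on both strands and say nothing of binding. The study also designed a primer pair for Ccr1, the receptor it followed by PCR. Both primers matched the transcript Ccr1-201, at bases 640 to 660 and 760 to 781 of 2833, for a product of 142 bases.
Ccr1 forward primer: ctcatgcagcataggaggctt
Ccr1 reverse primer: acatggcatcaccaaaaatcca

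Total counts per library were 42929862 to 48684674 in 2018 and 27845562 to 35453257 in 2022, so a receptor low in counts per 1000000 (CPM, scaled by TMM factors) rested on few reads. In the 2018 files 62.3% to 64.4% of counts between 1 and 20 were even, so a read pair was often counted as 2, and a count of 0 was taken to allow up to 6 counts per library there. The labelled tissue, brain, was checked by its markers. Neuronal Snap25 had a mean of 2748 CPM in sham and 1773 CPM after TBI, and astrocytic Gfap of 188 and 2484 CPM. The neutrophil gene Ly6g had 0, 2 and 6 counts after TBI and 0 counts in all 6 libraries of 2022, while S100a9, an abundant neutrophil and monocyte transcript, had 12, 6 and 24 counts in sham and 434, 685 and 1341 after TBI. In bulk tissue, more cells of a type and more RNA per cell cannot be told apart. The labels name 3 mice per group but not litters or days of surgery, so p-values measure the spread between these libraries.

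After TBI, 7 of the 9 receptor genes rose and 0 fell (edgeR quasi-likelihood test, Benjamini-Hochberg adjusted p below the threshold of 0.05), whereas 16.8% of all 19536 genes tested were higher and 11.2% lower by the same call. Every one of the 7 had all 3 TBI libraries above all 3 sham libraries, a separation seen upward in 24.6% of genes. The receptors that signal through G proteins made up these 7, and the atypical receptors Ackr1 and Ackr3 were the remaining pair. The median log2 fold change of the 9 was 3.25, against 0.02 for all genes tested. Ccr1, Ccr2, Ccr7, Cxcr2, Cxcr3 and Cxcr6 passed the filter on low counts only through their TBI libraries. They could thus only come out higher, and setting them against these shares is no test of the list. With at least 10 counts required in every library, Cxcr4, Ackr1 and Ackr3 remained, of which Cxcr4 was called. The shares of 16.8% and 11.2% also apply to the counts of ligand and marker genes called after TBI below. The plot of CPM by library shows the levels in all 4 groups.

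**Figure D1:**
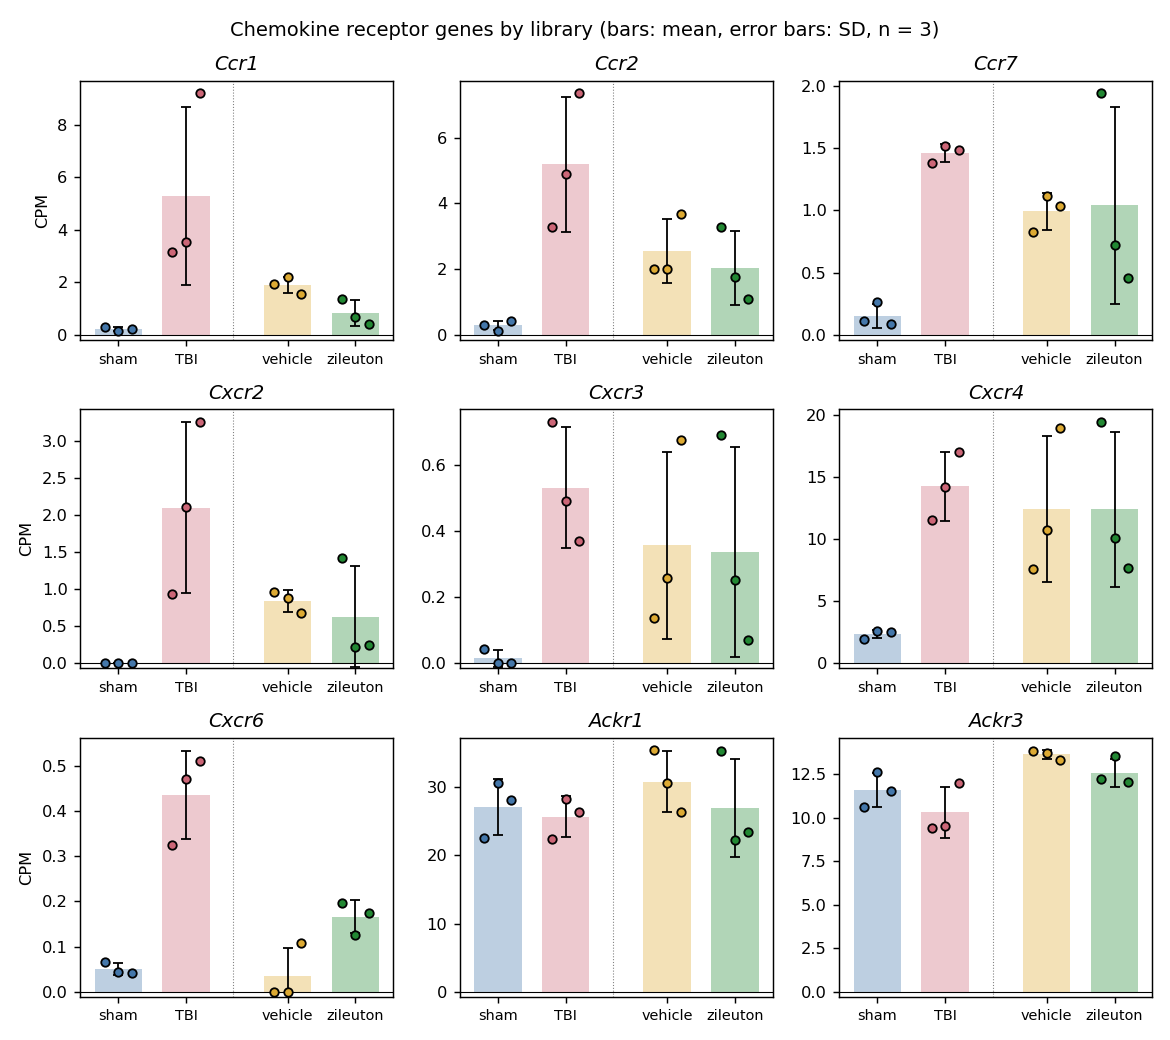
CPM of each receptor gene in the 12 libraries, with points for mice, bars for group means and error bars for SD (n = 3); the dotted line parts the 2018 batch (sham, TBI) from the 2022 batch (vehicle, zileuton), which were not tested against each other. Cxcr2 was at 0 in all 3 sham libraries and between 0.935 and 3.25 CPM after TBI, whereas Ackr1 stayed between 22.2 and 35.4 CPM in all 12 libraries.

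Ccr1, a receptor of monocytes, macrophages and neutrophils, had 14, 6 and 10 counts in the sham libraries and 156, 172 and 397 in the TBI libraries. The groups did not overlap, and TBI 3 stood well above the other TBI libraries. Mean levels were 0.217 ± 0.0907 CPM in sham and 5.31 ± 3.39 CPM after TBI (SD, n = 3), a log2 fold change of 4.60 (SE 0.53, edgeR adjusted p = 0.000378), or 3.94 without TBI 3. Ccr2, which brings monocytes out of bone marrow and into inflamed tissue, had 14, 6 and 20 counts in sham and 162, 239 and 317 after TBI. The same library, TBI 3, was the highest. Its log2 fold change was 4.16 (SE 0.45, edgeR adjusted p = 0.000243).

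Cxcr2, the receptor for the neutrophil-attracting chemokines, had 0 counts in each sham library and 46, 103 and 140 counts after TBI. It was the only one of the 9 with no read in sham. With a limit of 6 counts per sham library it was at least 16.2-fold higher after TBI (edgeR adjusted p = 0.00087), and at least 32.4-fold higher with a limit of 3. The TBI mice lowest and highest for Cxcr2 were also lowest and highest for neutrophil markers. The summed level of these was 4.69 to 5.39 CPM in sham and 47.5, 63.3 and 102 CPM in TBI 1, 2 and 3, with 6 of 7 tested members higher, and S100a9 and Csf3r, the most abundant, rose by 5.88 and 3.17 on the log2 scale. Markers of monocytes were higher in 8 of 8, with summed levels of 67.5 to 73.3 CPM in sham and 162, 183 and 204 CPM in TBI 1, 2 and 3. The order of the 3 mice was not particular to neutrophil markers. Summed leukocyte markers (349, 375 and 483 CPM) and microglia markers (363, 446 and 577 CPM) followed it too. Other lists did not, among them border macrophage markers (59.1, 35.5 and 78.5 CPM). The part of any of these cells in the receptor values was not tested.

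Cxcr3, a receptor of T and NK cells that answers interferon-induced chemokines, had 2, 0 and 0 counts in sham and 36, 24 and 16 after TBI. The ratio of summed counts per library size was 37.4, with a 95% counting interval of 6.32 to 1516 once the counts were divided by 2, since pairs were often counted as 2 (edgeR adjusted p = 0.00323). Here TBI 1 was the highest and TBI 3 the lowest, the reverse of Ccr1, Ccr2 and Cxcr2. Cxcr6, found on resident T cells and NK cells, had 3, 2 and 2 counts in sham and 16, 23 and 22 after TBI. It rose by 3.04 on the log2 scale (SE 0.55, edgeR adjusted p = 0.00379) at a mean of only 0.436 ± 0.0979 CPM (SD, n = 3). The T cell markers gave no common direction, with 3 of 7 tested higher and 1 lower, and Cd3e, which defines T cells, had 2, 0 and 0 counts in sham and 1, 10 and 2 after TBI. The most abundant of that list were Trbc2, which fell by 0.91 on the log2 scale, and Cd4, whose log2 fold change was -0.03 (edgeR adjusted p = 0.982). The median log2 fold change of the 7 tested was 0.79, with 4 above 0 and 3 below, so these 2 genes do not stand for the list. Of the NK cell markers 2 of 2 tested were higher (Gzma by 5.07 and Eomes by 4.37 on the log2 scale), and the defining Ncr1 had 0 counts in sham and 8, 6 and 0 after TBI. What part these cells had in the Cxcr3 and Cxcr6 values was not tested.

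Ccr7, which guides dendritic cells and lymphocytes toward lymphatic vessels and nodes, had 5, 12 and 4 counts in sham and 68, 74 and 64 after TBI. It was the most even of the receptors across the injured mice, at 1.46 ± 0.0714 CPM against 0.152 ± 0.0944 CPM in sham (SD, n = 3). Its log2 fold change was 3.25 (SE 0.44, edgeR adjusted p = 0.000911), or 3.85 without sham 2, the highest of the sham libraries. Of the dendritic cell markers 2 of 7 were higher and 1 lower, and the most abundant were Fscn1, with a log2 fold change of 0.04 (edgeR adjusted p = 0.789), and Zbtb46, which fell by 0.46. The median log2 fold change of the 7 was 0.76, with 5 above 0 and 2 below, so these 2 genes do not stand for the list. The part of dendritic cells in the Ccr7 value was not tested.

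Cxcr4, the receptor for Cxcl12 that holds leukocytes in marrow and guides neural progenitors, had 88, 119 and 120 counts in sham and 567, 694 and 734 after TBI. It was the most abundant of the signalling receptors in both groups. It rose 6.06-fold, from 2.35 ± 0.345 to 14.3 ± 2.76 CPM (SD, n = 3), and gave the smallest error of the 7 (log2 fold change 2.60, SE 0.20, edgeR adjusted p = 3.4e-05).

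The atypical receptors did not pass the test. Ackr1 had 1017, 1414 and 1336 counts in sham and 1103, 1378 and 1134 after TBI, and the groups overlapped. Its log2 fold change was -0.08 with a 95% interval of -0.38 to 0.22 (edgeR adjusted p = 0.71), and without TBI 1 the value was 0.01. Cadm3, which shares exon bases with Ackr1, fell by 0.42 on the log2 scale (edgeR adjusted p = 0.00291), and its part in the Ackr1 value was not tested. Ackr3, which takes up Cxcl12, had 478, 583 and 548 counts in sham and 462, 464 and 516 after TBI, for a log2 fold change of -0.17 with an interval of -0.49 to 0.15 (edgeR adjusted p = 0.411). Changes of 1.5-fold or more in either direction therefore lay outside the interval of each. Markers of the cells known to carry Ackr1 had list medians of opposite sign. Of the venular endothelial markers 3 of 7 were higher, including the most abundant, Vcam1 (by 1.06 on the log2 scale) and Vwf (by 1.11). The median of that list was 0.71, with 5 above 0 and 2 below. Of 6 tested red blood cell markers 3 were lower, including Hbb-bs, which fell by 0.79, and Hba-a1, which fell by 0.88. Their median was -0.70, with 5 below 0 and 1 above. By the same calls 16.8% of all genes tested were higher and 11.2% lower. The part of either list in the Ackr1 value was not tested.

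**Figure D2:**
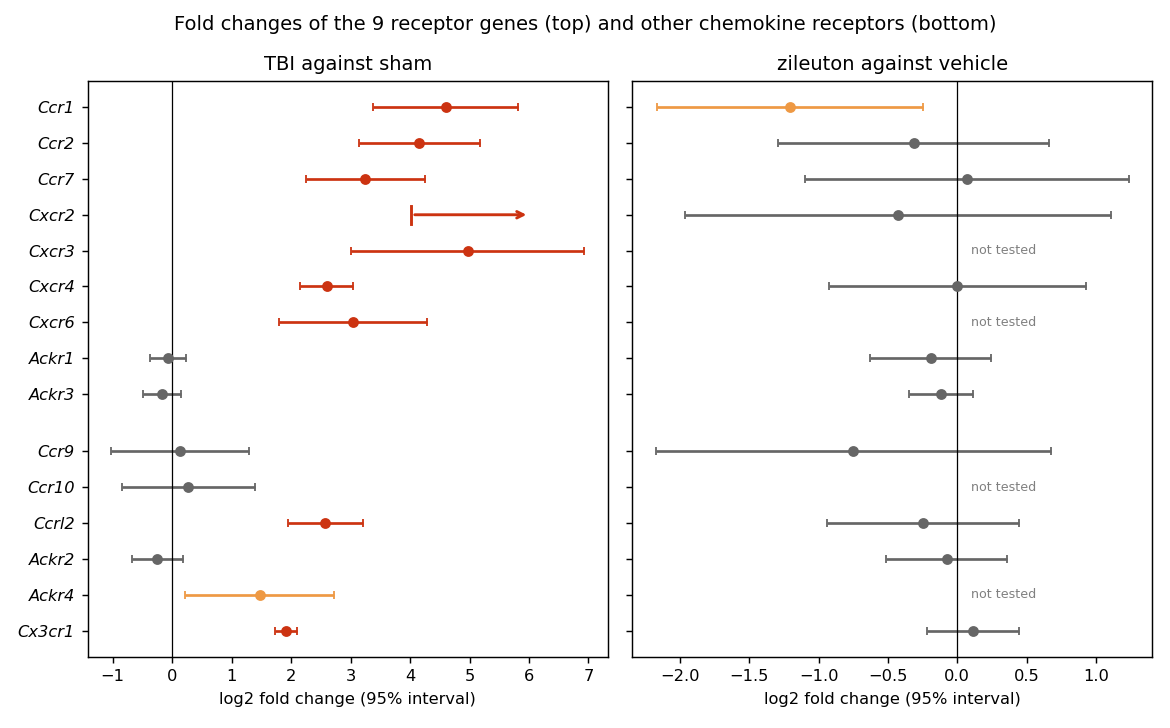
Log2 fold change (points) with its 95% interval (bars) for the 9 receptor genes and, under the gap, the other chemokine receptors tested, TBI against sham at left and zileuton against vehicle at right, each with its own scale. Red marks an adjusted p below 0.05, orange an unadjusted p below 0.05 alone, and the Cxcr2 arrow starts at its lower bound; 7 of the 9 genes are red at left and 0 at right, where Ccr1 is orange.

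Among 14 other chemokine receptors, 6 passed the filter on low counts and 2 of these were higher after TBI. Cx3cr1, the fractalkine receptor of microglia, rose by 1.91 on the log2 scale (SE 0.08). Ccrl2, an atypical receptor of myeloid cells, rose by 2.58. Their log2 fold changes lay above those of the atypical pair and, for Ccrl2, within the error of Cxcr4 at 2.60. The other 4 tested did not pass, and Ccr8 had 0 counts in all 6 libraries.

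The order of the receptors was compared per length, in FPKM for the 2018 libraries. In sham, Ackr1 led at 18.9 ± 2.94 FPKM, followed by Ackr3 at 3.40 ± 0.306 and Cxcr4 at 1.28 ± 0.193 FPKM (SD, n = 3), and these 3 did not overlap each other. The other 6 were each at or below 0.129 FPKM in every sham library, and neighbours among them overlapped. After TBI, Cxcr4 at 8.03 ± 1.51 FPKM stood above Ackr3 at 3.13 ± 0.406 FPKM with no overlap, and Ccr1 at 1.90 ± 1.19 FPKM reached into the range of Ackr3. From Ccr2 downward each receptor overlapped the next, in the order Ccr2, Ccr7, Cxcr2, Cxcr3 and Cxcr6. The atypical pair made up 93.4% to 94.0% of the summed FPKM of the 9 genes in sham and 58.1% to 66.2% after TBI. Ackr1 alone was 78.0% to 80.1% of that sum in sham and 48.8% to 57.8% after TBI. Its counts are uncertain because it shares exon bases with Cadm3, so its rank and the shares of the pair are uncertain too. The sum of the other 7 was 1.32 to 1.61 FPKM in sham and 9.68 to 16.1 FPKM after TBI, and Cxcr4 was 79.9% to 87.4% of it in sham and 58.7% to 66.6% after TBI. In the 2022 libraries (TPM) Ackr1, Cxcr4 and Ackr3 were likewise the first 3 in both groups, at 57.0 ± 10.5, 15.2 ± 6.68 and 8.13 ± 0.461 TPM in vehicle mice (SD, n = 3).

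The receptor counts were then set against Ptprc, which encodes CD45, the surface protein shared by leukocytes and, weakly, microglia. Ptprc itself rose from 2.24 to 30.9 CPM after TBI, a log2 fold change of 3.79. On the scale of log2 of the ratio of counts plus 1, the ratios of Ccr1, Ccr2, Ccr7 and Cxcr3 to Ptprc differed by 0.59, 0.35, -0.55 and 0.31 between TBI and sham, with overlapping groups (two-sided exact permutation p = 0.3, 0.5, 0.5 and 0.5, where the smallest possible is 0.1). The ratio of Cxcr2 was 2.66 higher, with no overlap (exact permutation p = 0.1, the smallest possible). Sham counts of Cxcr2 and Cxcr3 were at or near 0, so these 2 differences depend on the pseudocount, and with 0.5 they were 3.65 and 1.03. Cxcr4 and Cxcr6 were lower relative to Ptprc (differences of -1.20 and -1.13), as were Ackr1 and Ackr3 (-3.86 and -3.96), also with no overlap (exact permutation p = 0.1 each). Since Ptprc rose so far, the ratios of 97.8% of all genes tested did not overlap, so the 5 of 9 receptors that did not overlap carry no test of their own. These ratios also depend on the denominator. Over the sum of 6 leukocyte markers, of which 5 were higher after TBI, the most abundant being Laptm5 (2.54 on the log2 scale) and Coro1a (0.03, edgeR adjusted p = 0.884), the ratios of Cxcr4 and Cxcr6 turned to 1.11 and 1.19 higher. Over that sum 9 of 9 receptors did not overlap, against 86.1% of all genes tested.

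**Figure D3:**
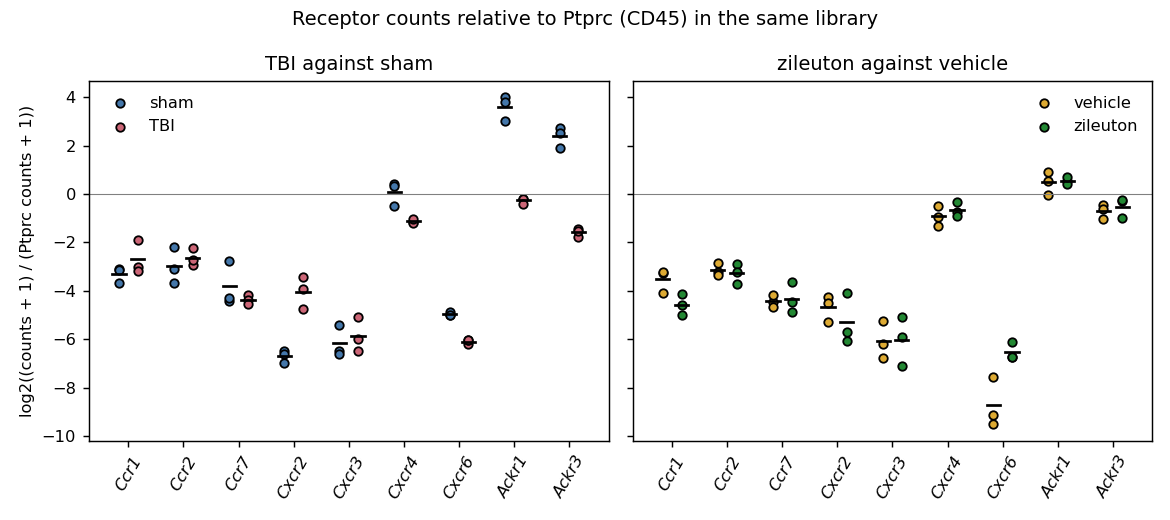
Log2 of receptor counts plus 1 over Ptprc counts plus 1 in the same library, with a point per mouse and a line at the group mean, for TBI against sham (left) and zileuton against vehicle (right). The ratios of Cxcr4 lie at -0.51 to 0.43 in sham and at -1.19 to -1.03 after TBI, and those of Ccr1 at -4.08 to -3.23 in vehicle mice and -5.00 to -4.11 in zileuton mice.

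Most ligands of these receptors rose as well. Of 19 ligand genes, 17 were tested and 15 rose after TBI, 0 fell, and the median log2 fold change was 4.49, or 3.89 with the 2 genes absent from sham at their lower bounds. Several, among them Ccl5, Cxcl2 and Cxcl10, passed the filter on low counts only through their TBI libraries and could only come out higher. Among ligands of Ccr1 and Ccr2, Ccl6 rose by 3.35 and Ccl3 by 3.89 on the log2 scale, and Ccl5 had 0, 0 and 2 counts in sham and 124, 272 and 191 after TBI. The ratio of its summed counts was 289, with a counting interval of 51.4 to 11430 for counts divided by 2. For Cxcr2, Cxcl5 rose by 5.90 (6.68 without sham 1), and Cxcl2, with 0 counts in sham, was at least 18.4-fold higher, or at least 10.4-fold without TBI 3. For Cxcr3, Cxcl10 rose by 7.16 (SE 0.48, edgeR adjusted p = 2.1e-05). Cxcl16, the ligand of Cxcr6, rose by 3.71. The ligands of Ccr7 did not pass, with log2 fold changes of 0.53 for Ccl19 and -0.05 for Ccl21a (edgeR adjusted p = 0.393 and 0.957), and both were chosen for mention after their values were seen. Cxcl12, the ligand shared by Cxcr4 and Ackr3, had 1444, 1240 and 1541 counts in sham and 2159, 1792 and 2062 after TBI, and rose by 0.49 (SE 0.12, edgeR adjusted p = 0.0148). The list of 28 genes through which the receptors signal was split, with 14 higher and 3 lower (28.0% of all genes tested were called in either direction). The 6 with the smallest p among those that rose were Dock2 (2.57), Vav1 (2.59), Rac2 (3.77), Gnai2 (0.88), Pik3cg (1.73) and Was (2.14, all log2 fold changes). Gnb1, Grk2 and Grk3, a G protein subunit and 2 receptor kinases that neurons also express, fell by 0.27, 0.28 and 0.43.

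**Figure D4:**
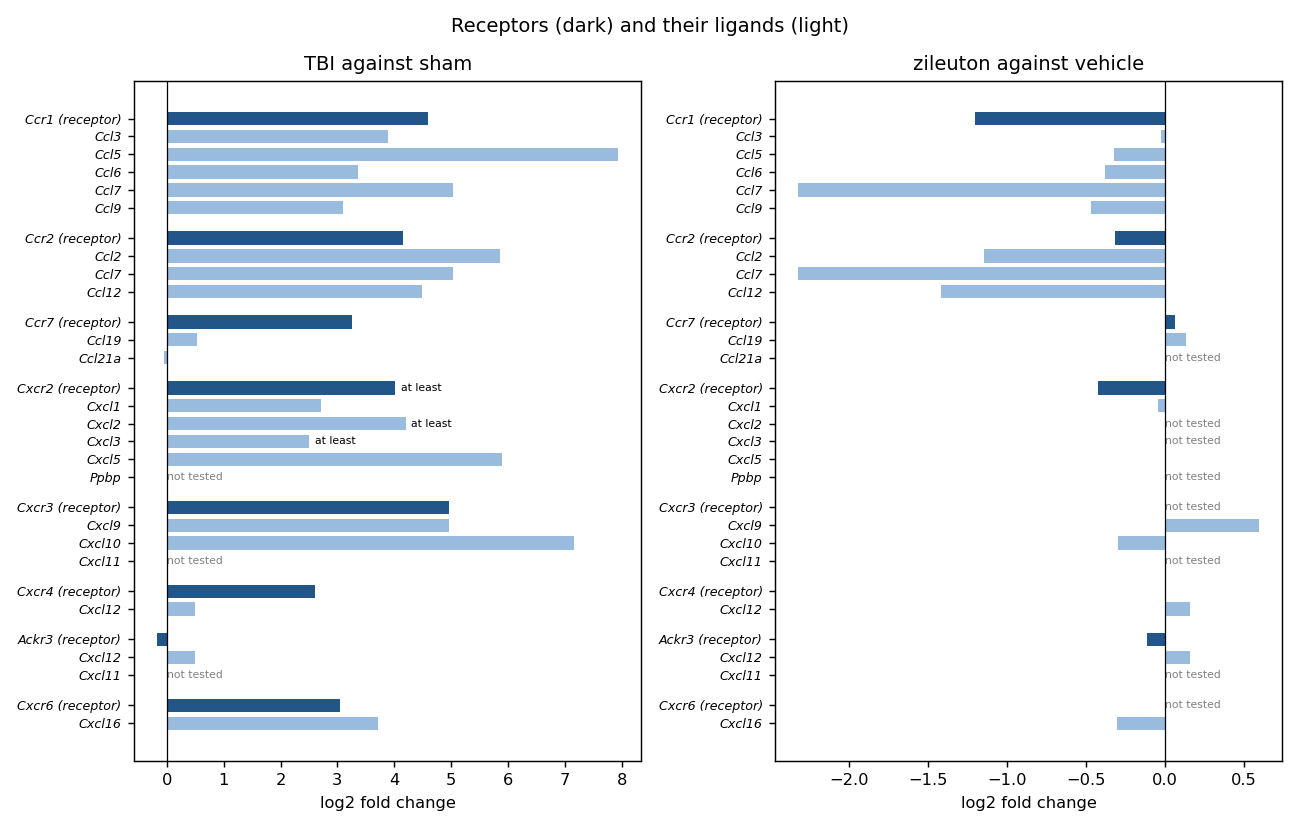
Log2 fold change of each receptor (dark bars) above its ligands (light bars), TBI against sham at left and zileuton against vehicle at right, on different scales; "at least" marks lower bounds for genes with 0 counts in sham. After TBI the bars for tested ligands of Ccr1, Ccr2, Cxcr2, Cxcr3 and Cxcr6 all point to higher levels, whereas the Ccr7 ligand Ccl21a lies at -0.05.

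Zileuton was compared with vehicle among injured mice, to ask whether blocking 5-LOX lowered the receptors. Of the 9 genes, 7 passed the filter on low counts and 0 passed the adjusted test by edgeR, as was so for all 17363 genes tested (0% called). DESeq2 also called 0 of the receptors, and 28 genes in all. At an unadjusted p below 0.05, 1 of the 7 was called, Ccr1, which was lower, against 6.83% of all genes called by this measure and 3.90% lower.

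Ccr1 had 56, 77 and 44 counts in vehicle mice A, B and C and 42, 21 and 12 in zileuton mice A, B and C. The groups did not overlap, a downward separation seen in 7.04% of genes, although zileuton A lay just under vehicle C. The mean was 1.90 ± 0.317 CPM in vehicle and 0.820 ± 0.501 CPM in zileuton mice (SD, n = 3), a log2 fold change of -1.21 (SE 0.42, 95% interval -2.17 to -0.25, edgeR adjusted p = 0.713). The adjusted p lay between 0.511 and 0.93 under the other settings that kept all libraries. The unadjusted p no longer passed 0.05 without vehicle B, without zileuton B or without zileuton C, where the log2 fold changes were -1.08, -1.07 and -0.89, and without zileuton A the value was -1.80. The study selected Ccr1 as lowered by zileuton on these same libraries, so its direction here is not independent evidence. It also reported lower Ccr1 mRNA with zileuton by RT-PCR at 3 days after injury, an earlier time than these libraries. Those PCR values were not examined here. The log2 ratio of these same Ccr1 counts to Ptprc was lower in every zileuton mouse (difference -1.04, exact permutation p = 0.1, the smallest possible). Vehicle C at -4.08 and zileuton A at -4.11 were barely apart, and 6.29% of all genes tested did not overlap on this ratio. Ptprc itself had a log2 fold change of -0.26 (edgeR adjusted p = 0.783).

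Ccr2 had 58.1, 70.1 and 103 estimated counts in vehicle and 100, 56.2 and 31.0 in zileuton mice. The groups overlapped, and the log2 fold change was -0.32 with an interval of -1.29 to 0.66 (edgeR adjusted p = 0.872), turning to 0.04 without vehicle C. Cxcr2 had 27.8, 31.1 and 18.5 estimated counts in vehicle and 43.0, 6.97 and 7.11 in zileuton mice. Zileuton A was the highest of all 6 and zileuton B and C the lowest. The log2 fold change was -0.43 with an interval of -1.96 to 1.11 (edgeR adjusted p = 0.892), and -1.84 without zileuton A (edgeR adjusted p = 0.32).

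Ccr7 had 24, 39 and 29 counts in vehicle and 59, 23 and 13 in zileuton mice, and Cxcr4 had 221, 376 and 533 in vehicle and 593, 322 and 220 in zileuton mice. Both were highest in zileuton A, and the groups overlapped. Their log2 fold changes were 0.07 (interval -1.10 to 1.24) and 0.00 (interval -0.93 to 0.93) by edgeR, and -0.74 and -0.48 without zileuton A. Intervals this wide hold a 1.5-fold change in either direction.

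Cxcr3 and Cxcr6 were too low to be tested. Cxcr3 had 4, 9 and 19 counts in vehicle and 21, 8 and 2 in zileuton mice, a full overlap. Cxcr6 had 0, 0 and 3 counts in vehicle and 6, 4 and 5 in zileuton mice, with a ratio of summed counts of 5.07 and a counting interval of 1.43 to 27.3, which covers counting error only. It was the single receptor with all zileuton mice above all vehicle mice, an upward separation seen in 6.51% of genes tested, and the log2 of its ratio to Ptprc went from -8.73 to -6.53 (exact permutation p = 0.1, the smallest possible).

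Ackr1 had 1034, 1070 and 741 estimated counts in vehicle and 1072, 707 and 672 in zileuton mice, and Ackr3 had 403, 480 and 374 in vehicle and 371, 430 and 345 in zileuton mice. The groups overlapped for each. The log2 fold changes were -0.19 (interval -0.63 to 0.24) and -0.12 (interval -0.35 to 0.12; edgeR adjusted p = 0.821 and 0.80). Without zileuton A, Ackr1 was at -0.43 (edgeR adjusted p = 0.381). Red blood cells carry Ackr1, and 4 of 5 tested red blood cell markers were lower at an unadjusted p below 0.05, against 3.90% of all genes tested. All 4 were globin genes, among them Hbb-bs and Hba-a2, with log2 fold changes of -0.52 and -0.48. Of the venular endothelial markers 0 of 7 had an unadjusted p below 0.05, with a median log2 fold change of -0.0018, and the most abundant, Vcam1 and Vwf, were at 0.11 and -0.0018. The part of either list in the Ackr1 value was not tested. Ackr3 had the narrowest interval of the 7 tested, with 12.6 ± 0.811 CPM in zileuton against 13.6 ± 0.254 CPM in vehicle mice (SD, n = 3).

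Mouse by mouse, zileuton A stood apart from the other zileuton mice. It was above the mean of its group by 0.764 or more on the log2 scale for Ccr1, Ccr2, Ccr7, Cxcr2 and Cxcr4 and had the highest Ackr1. Selp, the adhesion protein of activated venules and platelets, stood at 15.4 CPM in zileuton A, 5.83 in vehicle A and 0.471 to 1.80 CPM in the other 4, and the summed monocyte markers at 367 CPM in zileuton A against 167 to 240 CPM in the other 5. Of that 367 CPM, Fn1, which endothelial and stromal cells also express, gave 320.4, and without it the sum was 46.9 CPM in zileuton A against 27.4 to 43.7 CPM. Without zileuton A, 3 of the 7 receptors in place of 1 had an unadjusted p below 0.05 (Ccr1, Cxcr2 and Ackr1, chosen for mention after their values were seen), and the share of all genes tested went from 6.83% to 10.8%. Over the 12 libraries the deviations from the group means correlated with Pearson r of 0.79 for Cxcr2 and Ackr1, 0.77 for Ccr1 and Cxcr2, 0.73 for Ccr1 and Ccr2, and 0.05 for Ccr2 and Ackr3. These are descriptions, since the points share library, depth and the makeup of the sample.

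**Figure D5:**
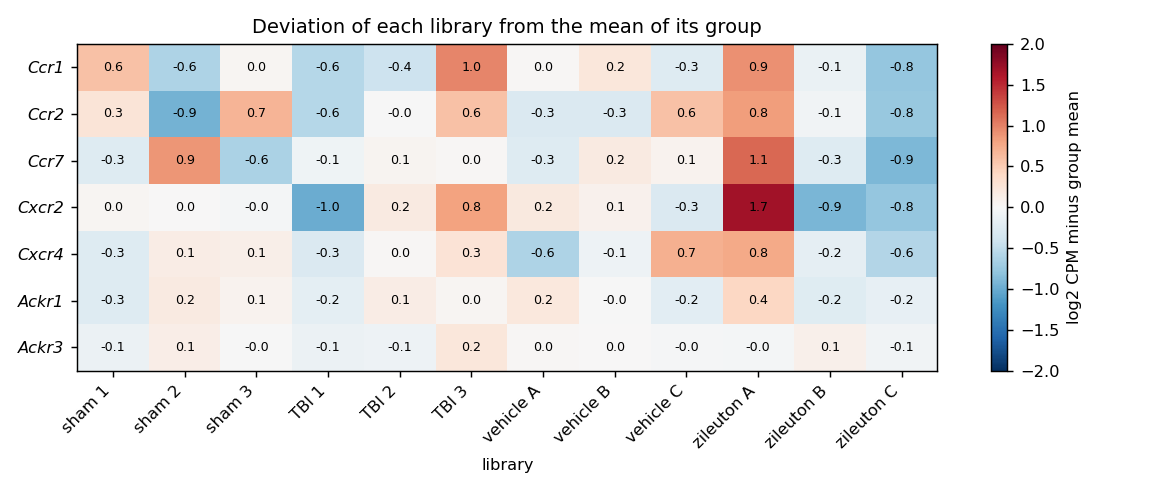
Log2 CPM minus the mean of the library's group for the 7 receptor genes tested in both comparisons (rows) in each of the 12 libraries (columns), with red above and blue below the mean. Zileuton A is red for 6 of the 7 genes, most for Cxcr2, and Ackr3 stays within 0.227 of its group means.

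Among 16516 genes tested in both comparisons, those whose deviations were most like a receptor's over the 12 libraries were Ptges and Fcgr4 for Ccr1 (Pearson r = 0.97 and 0.94), Arap1 for Ccr2 (0.94), Ddx19a and Sh3pxd2b for Ccr7 (0.96 and 0.95), and Nxpe5 and Eif6 for Cxcr2 (0.98 and 0.97). They were Pygl and Slc25a45 for Cxcr4 (r = 0.98 and 0.98), Sbno2 and Repin1 for Ackr1 (0.92 and 0.92), and Nanp and Gm12671 for Ackr3 (0.92 and 0.92). Ptges encodes the prostaglandin E synthase and Fcgr4 an activating antibody receptor of myeloid cells. These are the best of very many pairs and carry no test.

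Of the 19 ligand genes, 14 were tested with zileuton and 0 passed the adjusted test. At an unadjusted p below 0.05, 4 were lower, the Ccr1 and Ccr2 ligands Ccl2, Ccl7, Ccl9 and Ccl12, against 3.90% of all genes lower by this call. The study lists Ccl2, Ccl7 and Ccl12 among the genes most lowered by zileuton in these same libraries, so their direction here is not independent evidence. By RT-PCR at an earlier time it reported lower Ccl2 and Ccl7 and no significant decrease of Ccl12. Ccl7 had 37, 30 and 16 counts in vehicle and 11, 1 and 4 in zileuton mice, for a log2 fold change of -2.32 (SE 0.65, edgeR adjusted p = 0.713). The value was -3.37 without zileuton A and -1.82 without zileuton B. Ccl2 had 130, 129 and 75 counts in vehicle and 80, 43 and 26 in zileuton mice (-1.14, SE 0.39), with the groups just apart once scaled to CPM. Ccl12, whose groups overlapped, and Ccl9 had log2 fold changes of -1.42 (-0.67 without vehicle A) and -0.46. At an unadjusted p below 0.05, there was 1 ligand without zileuton B, 2 without zileuton C and 6 without zileuton A, where the shares of all genes tested were 3.90%, 4.39% and 10.8%. Of the monocyte markers 2 of 8 were lower at an unadjusted p below 0.05. They were Ly6c2 and Chil3, with log2 fold changes of -1.11 and -1.59. The median of the list was -0.32, with 5 below 0 and 3 above. The most abundant, Fn1 and Vcan, were at 0.08 and 0.20, so these 2 genes do not stand for the list. Summed without Fn1, the list was 27.4 to 43.7 CPM in vehicle and 31.2 to 46.9 CPM in zileuton mice. Vcan gave most of that sum in every library, so the sum does not stand for the other markers either. The part of monocytes in the ligand values was not tested.

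Of the 14 other chemokine receptors 4 were tested with zileuton, and 0 passed the edgeR test, adjusted or unadjusted. Cx3cr1 had a log2 fold change of 0.11 (95% interval -0.22 to 0.44) and Ccrl2 of -0.25 (-0.94 to 0.44). Of 27 tested signalling genes only Grk5, a receptor kinase, had an unadjusted p below 0.05 (higher, as in 2.93% of all genes, log2 fold change 0.25, edgeR adjusted p = 0.713).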

How the data were processed

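RNA-seq of mouse brain was analysed in 4 groups of 3. The authors deposited raw counts per gene and FPKM for the 2018 libraries, and for the 2022 libraries TPM and estimated counts, some of them fractional. The submitters' processing notes name HISAT2, featureCounts, Subread and DESeq2, and GRCm39, with no versions. Estimated counts were rounded. Each batch was fitted alone with edgeR 4.0.16 under R 4.3.3, using filterByExpr, TMM factors, glmQLFit and glmQLFTest, with Benjamini-Hochberg adjustment over all genes tested and a threshold of 0.05. The standard error is the log2 fold change divided by the square root of F. CPM used library totals times TMM factors. Alternatives used DESeq2 1.42.0, limma 3.58.1 (pseudocounts of 1 and 0.1) and an equal-variance test. Scripts were tested on simulated data. Figures were drawn with matplotlib 3.10.9. Symbols matched 34808 and 52081 identifiers.

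The receptors, ligands, signalling genes and 15 marker lists were chosen with earlier results of these data known. Named genes were the receptors, up to 6 called genes a list by smallest p, the 2 most abundant of each marker list, and the 2 most like each receptor. A few genes of these lists are not reported here, and list counts leave them out. Cxcl2, Cxcl12, Ccl19, Ccl21a, Gnb1, Grk2, Grk3, Selp, Cd3e, Ncr1, Ly6g, Ly6c2 and Chil3 fall outside this rule and were named after their values were seen. Depth limits low genes, and intervals of counts cover counting error only.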

Additional observations from a re-analysis of the deposited data

How the results depend on the processing

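After TBI, 7 receptors were called under 7 of 12 other settings and without each library (7 to 7). The count was 5 of 7 with counts divided by 2, 1 of 3 with at least 10 counts in every library and 2 of 4 by limma on log2(FPKM + 1) or log2(FPKM + 0.1), where fewer genes were tested, and 2 of 9 by the equal-variance test on FPKM. That test also gave 2 of 19 ligands and 7 of 28 signalling genes, in place of 15 and 17. The stricter count filter gave 4 of 6 ligands. With every gene of at least 1 count, 4 other receptors in place of 2 were called, and 1 by the equal-variance test. Without single libraries the counts were 2 to 3 for other receptors, 13 to 16 for ligands and 13 to 17 for signalling genes. Ackr1 turned to 0.011 without TBI 1 (-0.20 to 0.011 over single libraries). Over the leukocyte marker sum, 9 receptors in place of 5 did not overlap (5 to 6 without single libraries, and 86.1% and 97.8% of all genes), and Cxcr4 and Cxcr6 turned to 1.11 and 1.19. The cause of these shifts was not tested. The halved counts behind the Cxcr3 and Ccl5 intervals, the Cxcl2 bound without TBI 3 and the monocyte sum without Fn1 were added after seeing the data.

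With zileuton, 0 receptors passed adjustment under the 11 other settings and without each library. At an unadjusted p below 0.05 the count was 2 by limma on log2(TPM + 1) with no filter and 2 by the equal-variance test on TPM, and 0 to 3 without single libraries. For other receptors it was 0 under every setting and without each library. For ligands it was 2 by the equal-variance test and 1 to 6 without single libraries. For signalling genes it was 0 under limma, the equal-variance test and removal of the length trend, and 0 to 6 without single libraries. The receptors that did not overlap relative to Ptprc numbered 2 to 4 without single libraries, with 4 without zileuton A. With all libraries 6.29% of all genes tested did not overlap on this ratio. That share was not computed without single libraries, so the count of 4 cannot be read as a result about the receptors. Directions turned for Ccr2 (0.036 without vehicle C, -0.84 to 0.036 over single libraries), Ccr7 (-0.10 by limma on log2(TPM + 0.1), -0.05 without vehicle A, -0.74 without zileuton A, at most 0.43) and Cxcr4 (-0.0004463 with library totals alone, -0.25 without vehicle A, -0.10 without vehicle B, -0.48 without zileuton A, at most 0.44).

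Replicate numbers did not pair the samples: deviations of same-numbered libraries correlated at -0.02, -0.08 and -0.02 in 2018 and -0.25, 0.08 and -0.26 in 2022, and 1 of 6 matched its own number best. With the replicate as a block, 7 receptors, 2 other receptors, 15 ligands and 13 signalling genes were called after TBI. With zileuton the block gave 1 receptor, 0 other receptors, 3 ligands and 1 signalling gene at an unadjusted p below 0.05, and Ccr7 and Cxcr4 were at -0.15 and -0.014. Over all genes the block gave 4337 adjusted calls after TBI in place of 5479, and 729 unadjusted calls with zileuton in place of 1186.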

Other observations

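Markers not set beside a receptor above moved as follows after TBI. By the same adjusted call 16.8% of all genes tested were higher and 11.2% lower. Microglia markers were higher in 6 of 7, with Fcrls up by 2.86 and Olfml3 by 2.32 on the log2 scale. Border macrophage markers were higher in 4 of 6 (Mrc1 by 1.44, F13a1 by 2.57), and fibroblast and meninges markers in 4 of 5 (Col1a1 by 2.14, Col1a2 by 1.98). Endothelial markers were higher in 6 of 8 (Ly6c1 by 0.58, whereas Slco1a4 was at 0.33, edgeR adjusted p = 0.292), and astrocyte markers in 4 of 5 (Slc1a3 by 0.51, whereas Slc1a2 was at 0.19, edgeR adjusted p = 0.124). Of 2 B cell markers tested, Cd79b was higher by 2.83, whereas Cd79a stood at -0.10 (edgeR adjusted p = 0.904). Neuron markers were lower in 3 of 6, with Snap25 and Syt1 at -0.63 and -0.59. With zileuton, 0 markers of any list passed the edgeR adjusted test.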
